A study of Mus musculus with 69 samples.

Results

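Mucin 1 (Muc1) was followed in newly made kidney RNA and in total kidney RNA of mice after ischemia or after volume depletion. It is 1 of 24411 genes in a count table of 69 libraries, and it was found by its symbol. Muc1 was chosen by its values in male mice, where ischemia had moved it in opposite directions in the pulldowns of the 2 Cre lines. The male ischemia values, and every comparison that holds the male control pulldowns, are therefore given for Muc1 as a description with no p-value, and the p-values for Muc1 come from pulldowns of females, from volume-depleted mice compared with each other and from total RNA.

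Muc1 encodes a mucin that spans the apical membrane of secretory and tubular epithelia. Its outer part is a long tandem repeat rich in serine, threonine and proline that carries dense O-linked glycans, and its short cytoplasmic tail binds β-catenin and signaling kinases. In the kidney the protein lines the distal nephron and the collecting duct, and frameshifts in the repeat of human MUC1 cause an inherited tubulointerstitial kidney disease.

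All mice carried a Rosa26 allele of Uprt, an enzyme that loads 4-thiouracil (4-TU) into RNA, which Cre recombinase switches on. Every mouse received 4-TU at 430 mg/kg by intraperitoneal injection 4 hours before the kidneys were taken, and tagged RNA was biotinylated and pulled down on streptavidin beads. In Hoxb7Cre;UPRTf/+ mice Cre marks the collecting duct. In the second line, which the labels spell Atp6b1v1Cre;UPRTf/+ and which is called Atp6v1b1Cre here, Cre marks intercalated cells and cells with features of both collecting duct cell types, with a few interstitial cells. The control mice carried the same alleles and received the same 4-TU. Ischemia was a 10-minute clamp of both renal pedicles with labeling 24 hours later (iAKI in the labels), and volume depletion was 72 hours of restricted water and food (vAKI).

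The pulldown set held 48 libraries, of which 43 came from mice of 5.5 months (21 females and 22 males) and 5 from control mice of 3 months. The total RNA set held 21 libraries, all from control mice. Of these, 2 Hoxb7Cre females and 3 Atp6v1b1Cre males were of 3 months and the rest of 5.5 months. Libraries held between 12618062 and 30305464 counts, and Muc1 took between 167 and 2360 of them. Levels of Muc1 are given as CPM, counts scaled to a library of 1000000, after scaling by the trimmed mean of M values (TMM) over all 69 libraries. Because the libraries are bulk RNA, fewer labeled cells and less new RNA per cell cannot be told apart. The labels do not say that each library came from a different mouse, so p-values measure the spread between libraries. Of 89 pairs of libraries within a group, the closest pair still differed with a chi-square per degree of freedom of 9.67, above sampling noise. In ischemic kidneys, 5 of 6 injury genes (among them Havcr1, which encodes KIM-1, and Lcn2, which encodes NGAL) rose in Hoxb7Cre males, Atp6v1b1Cre males and Atp6v1b1Cre females, and Havcr1 alone rose in Hoxb7Cre females. In the same order, the shares of all genes called were 6.13%, 8.51%, 2.66% and 3.14%.

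Muc1 (ENSMUSG00000042784.9) lies on the plus strand of chromosome 3 at chr3:89229057-89233381 (GRCm38), with 7 exons in a transcript of 2242 bases. Exon 2, at chr3:89229911-89231214, holds the tandem repeat and makes up 58.2% of the transcript. The following 3 neighboring units show the repeat for which the protein is known; each has 60 bases, from chr3:89230305-89230364, chr3:89230365-89230424 and chr3:89230425-89230484, and capitals mark the 42 positions that are the same in all 3.
Muc1 repeat 1: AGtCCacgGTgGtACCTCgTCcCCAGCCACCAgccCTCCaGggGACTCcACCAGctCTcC
Muc1 repeat 2: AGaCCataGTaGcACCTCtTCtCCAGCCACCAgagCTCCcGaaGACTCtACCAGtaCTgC
Muc1 repeat 3: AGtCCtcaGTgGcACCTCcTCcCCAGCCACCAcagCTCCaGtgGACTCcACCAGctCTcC

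Neighboring repeats were 73.3% (the first and the second) and 76.7% (the second and the third) identical, and the first and the third were 86.7% identical. Reads that map to more than 1 place were not counted. Of the 2193 windows of 50 bases in the transcript, 28 (1.28%) occur in it more than once, so most such windows are unique within the transcript, while matches elsewhere in the genome were not examined.

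The 250 bases before the RefSeq start of Muc1, at chr3:89228806-89229055 on the plus strand (GRCm38.p6), are shown because newly made RNA was the measured quantity. Capitals mark the matches of 3 of the 4 motifs searched on both strands, which do not overlap.
Muc1 promoter: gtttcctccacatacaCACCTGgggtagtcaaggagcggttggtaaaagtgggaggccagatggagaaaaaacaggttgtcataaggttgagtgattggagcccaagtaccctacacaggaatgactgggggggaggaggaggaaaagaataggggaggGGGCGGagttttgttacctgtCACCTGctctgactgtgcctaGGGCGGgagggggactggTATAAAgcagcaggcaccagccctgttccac

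The TATA box TATAAA begins 31 bases before the start, and 12.4% of 32851 promoter windows of the same length hold it. The GC box GGGCGG begins 91 and 49 bases before the start, and 32.7% of the windows hold it. The E-box CACCTG begins 234 and 70 bases before the start, and 17.2% hold it. The STAT motif TTCNNNGAA, present in 7.02% of the windows, had no match in these letters.

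Muc1 rose after ischemia in the pulldowns of both lines in females, by 2.47-fold in Hoxb7Cre and by 2.27-fold in Atp6v1b1Cre. In Hoxb7Cre control females the 4 libraries read 28.99, 27.5, 26.8 and 23.1 CPM (26.6 ± 2.48, mean ± SD). In ischemic Hoxb7Cre females the 3 libraries read 59.7, 71.1 and 65.7 CPM (65.5 ± 5.74). All 3 ischemic libraries lay above all 4 controls. The log2 fold change was 1.31 (SE 0.24, edgeR quasi-likelihood test with Benjamini-Hochberg adjustment, adjusted p = 0.0130), and 3.14% of the 21175 genes tested were called in this comparison. In Atp6v1b1Cre control females the 4 libraries read 24.3, 28.998, 26.9 and 25.05 CPM (26.3 ± 2.10). In ischemic Atp6v1b1Cre females the 3 libraries read 59.95, 81.3 and 40.7 CPM (60.7 ± 20.3). These groups did not overlap either, although the ischemic libraries spread from 40.7 to 81.3 CPM. The log2 fold change was 1.19 (SE 0.23, edgeR adjusted p = 0.0159), and 2.66% of genes were called.

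The response of females did not differ detectably between the lines. The log2 difference, Atp6v1b1Cre minus Hoxb7Cre, was -0.12 (95% confidence interval -0.82 to 0.57, edgeR adjusted p = 1). No gene was called by edgeR in that comparison (0%), while 1525 genes had an unadjusted p below 0.05 and DESeq2 called 39.

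Both calls in females were close to the threshold. The Hoxb7Cre call was lost without ischemia library 2 (log2 1.24, adjusted p = 0.0657), without ischemia library 3 (1.31, 0.0870), without control library 9 (1.31, 0.0527) and without control library 10 (1.24, 0.0620), all by edgeR. It was also lost in edgeR fits that took the run of library numbers as a covariate (1.19, adjusted p = 0.0931) or on libraries numbered 1 to 40 only (1.17, 0.498), where all 3 ischemic Hoxb7Cre females but only 1 of their controls stand. The Atp6v1b1Cre call was lost without ischemia library 3 (0.92, 0.0910) and without control library 7 (1.16, 0.0664) in the same test. The direction held in each of these fits. With the sexes fitted together and sex as a covariate, however, the Hoxb7Cre value was -0.14 and the difference between the lines 1.46. Those values include the male libraries, which entered the choice of the gene.

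In males, whose ischemia values entered the choice of the gene, Muc1 went down in Hoxb7Cre and up in Atp6v1b1Cre. In Hoxb7Cre control males the 4 libraries read 54.4, 92.5, 47.4 and 49.5 CPM (61.0 ± 21.2). In ischemic Hoxb7Cre males the 4 libraries read 24.2, 25.2, 32.7 and 24.8 CPM (26.7 ± 4.01). In Atp6v1b1Cre control males the 4 libraries read 21.1, 18.1, 15.9 and 16.3 CPM (17.9 ± 2.35), the lowest of the 4 control pulldown groups of that age. In ischemic Atp6v1b1Cre males the 3 libraries read 69.1, 46.4 and 31.8 CPM (49.1 ± 18.8). The log2 fold changes were -1.17 (SE 0.21) in Hoxb7Cre and 1.45 (SE 0.23) in Atp6v1b1Cre, on a background of 6.13% and 8.51% of genes called in those comparisons.

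The group that stood apart was that of the Hoxb7Cre control males. Their 4 libraries lay above all 4 control females of the same line and above all Atp6v1b1Cre controls, whereas ischemic Hoxb7Cre males (24.2 to 32.7 CPM) lay in the range of control females (23.1 to 28.99 CPM) or just above it. Muc1 thus rose or read higher after ischemia in 3 of the 4 sets of line and sex, and Hoxb7Cre males were the exception. Whether ischemia acted differently in the 2 sexes of this line was not tested, since the male values had entered the choice of the gene.

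**Figure D1:**
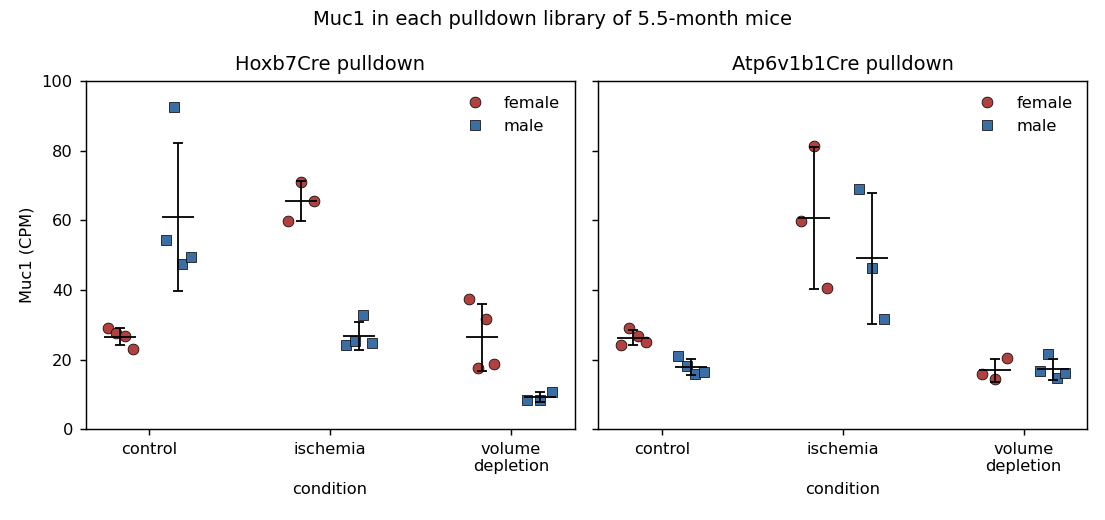
Muc1 level in CPM (y axis) in each of the 43 pulldown libraries of 5.5-month mice by condition (x axis), with Hoxb7Cre at left and Atp6v1b1Cre at right; points are libraries, colored by sex, and crosses give the group mean and SD. The Hoxb7Cre control males sit between 47.4 and 92.5 CPM, above every other control, and the volume-depleted Hoxb7Cre males sit between 8.41 and 10.8 CPM, below every other library.

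In males the comparisons of volume depletion with control share the control libraries that had entered the choice of Muc1, and they are given with no test. The 3 volume-depleted Hoxb7Cre males read 8.41, 8.47 and 10.8 CPM (9.23 ± 1.37), the lowest 3 of all 69 libraries. The log2 fold change against the Hoxb7Cre control males was -2.72 (SE 0.25), and 35.5% of all genes were called in this comparison. Control library 3 was the highest of all libraries at 92.5 CPM, and without it the log2 fold change was -2.45.

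In the other 3 sets volume depletion moved Muc1 less. The 4 volume-depleted Hoxb7Cre females read 37.3, 17.7, 31.7 and 18.8 CPM (26.4 ± 9.66). They fell on both sides of their controls, 2 above all of them and 2 below, and the log2 fold change was -0.02 (95% confidence interval -0.47 to 0.44, edgeR adjusted p = 1, 0.109% of genes called). With the sexes fitted together, male controls included, the Hoxb7Cre value was -1.38. The 4 volume-depleted Atp6v1b1Cre males read 16.7, 21.6, 14.6 and 16.1 CPM (17.3 ± 3.02) and overlapped their controls. Their log2 fold change was -0.03 (SE 0.21, 14.6% of genes called). The 3 volume-depleted Atp6v1b1Cre females read 15.9, 14.3 and 20.5 CPM (16.9 ± 3.21). All 3 lay below all 4 controls, but the log2 fold change of -0.64 (SE 0.24) missed the threshold (edgeR adjusted p = 0.0714, 18% of genes called). Ischemia and volume depletion were compared with the same control libraries, so their changes are not independent of each other.

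Between the lines, the log2 difference in the response of Muc1 to volume depletion, Atp6v1b1Cre minus Hoxb7Cre, was 2.69 in males (SE 0.32, 4.2% of genes called). It holds both male control groups that had entered the choice of the gene, so it is given with no test, and with the sexes fitted together it was 1.08. In females the same difference was -0.62 (95% confidence interval -1.30 to 0.06, edgeR adjusted p = 0.280). No gene was called by edgeR there (0%), with 4450 at an unadjusted p below 0.05 and 831 called by DESeq2.

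**Figure D2:**
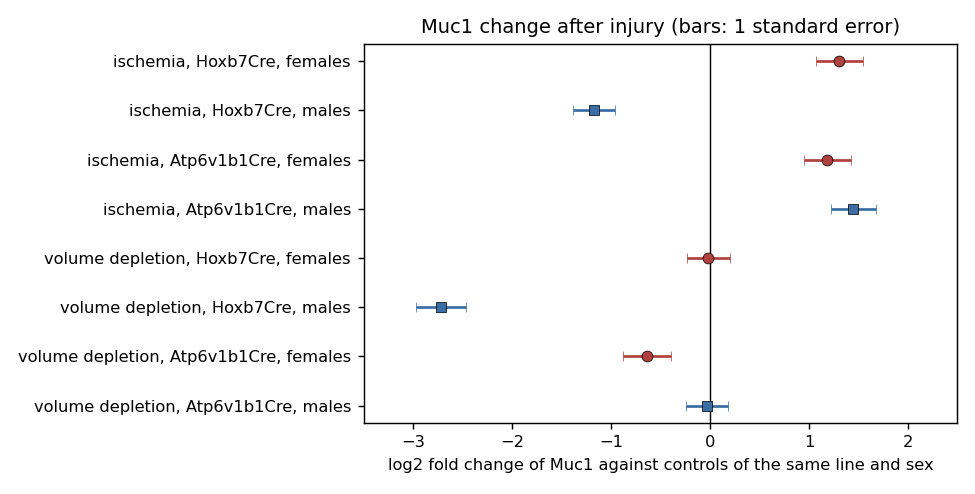
Log2 fold change of Muc1 (x axis) against control pulldowns of the same line and sex, for each injury, line and sex (y axis); points are edgeR estimates and bars 1 standard error. Hoxb7Cre males stand to the left of 0 after both injuries, at -1.17 and -2.72, while ischemia in the other 3 sets stands between 1.19 and 1.45.

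Volume-depleted libraries were then compared with each other, with no control in the contrast, in comparisons added after seeing the data. No library of these contrasts had entered the choice of Muc1. Their fit also held the male control and ischemia pulldowns that had. Scaling, standard errors and p-values thus drew on those libraries too. Because the levels had been seen before these contrasts were set, their p-values are a description and not an independent test. Muc1 was lower in volume-depleted Hoxb7Cre males than in volume-depleted Hoxb7Cre females, by 2.84-fold. The log2 difference, males minus females, was -1.51 (SE 0.25, edgeR adjusted p = 1.67e-04), against 10.7% of genes called, and the highest of the 3 males (10.8 CPM) lay below the lowest of the 4 females (17.7 CPM). In volume-depleted Atp6v1b1Cre mice the same difference was 0.03 (SE 0.25, edgeR adjusted p = 1, 1.2% of genes called). Among volume-depleted males Muc1 was higher in Atp6v1b1Cre than in Hoxb7Cre by 0.91 on the log2 scale (SE 0.25, edgeR adjusted p = 0.0494, 1.78% of genes called). That call rested on single libraries: it was lost in 6 of the 7 edgeR fits that left 1 library out, which were those without Hoxb7Cre libraries 4, 6 or 7 and without Atp6v1b1Cre libraries 1, 2 or 7 (log2 0.78 to 1.03, adjusted p 0.0615 to 0.210). Among volume-depleted females the difference was -0.63 (SE 0.25, edgeR adjusted p = 0.0929, 9.72% of genes called), and it passed without Hoxb7Cre library 5 (-0.76, edgeR adjusted p = 0.0238).

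Markers of principal cells, the collecting duct cells that take up water through aquaporin 2, moved with Muc1 in Hoxb7Cre males. Of the 8 markers, 7 fell after ischemia in Hoxb7Cre males (Aqp2, Aqp3, Aqp4, Fxyd4, Scnn1g, Hsd11b2 and Avpr2) and all 8 after volume depletion by the edgeR test, beside 6.13% and 35.5% of all genes called in either direction. Their median log2 fold changes were -0.98 and -1.37, with a median over all genes of 0 in both. In Hoxb7Cre females none of the 8 passed after ischemia or volume depletion, beside only 3.14% and 0.109% of all genes called. The median of the 8 was 0.62 after ischemia and 0.04 after volume depletion. The summed level of the 8 was 2802 to 3646 CPM in Hoxb7Cre control males and 1146 to 2581 CPM in control females. After ischemia the sum was 1072 to 1315 CPM in Hoxb7Cre males and 1550 to 3107 CPM in females, and after volume depletion it was 1174 to 1261 CPM in males and 1219 to 2238 CPM in females. Aqp2 alone was 1657 to 2168 CPM in Hoxb7Cre control males and 699 to 1445 CPM in control females. In Atp6v1b1Cre mice the sum was 784 to 1063 CPM in control females and 846 to 866 CPM in control males, and after ischemia it was 702 to 1674 CPM in females and 759 to 1128 CPM in males. The part of principal cell content in the Muc1 values was not tested.

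**Figure D3:**
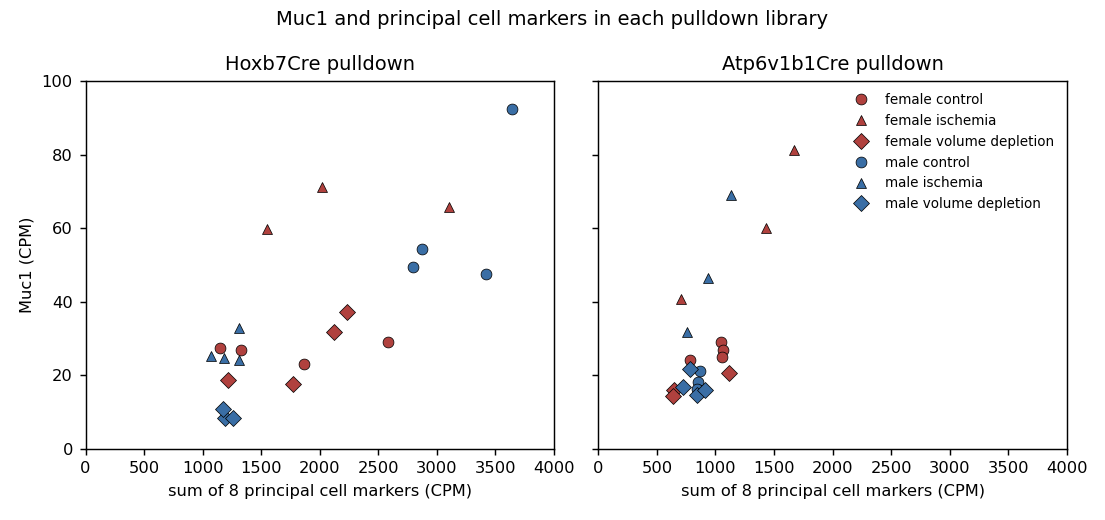
Muc1 level in CPM (y axis) against the summed level of 8 principal cell markers in CPM (x axis) in each of the 43 pulldown libraries of 5.5-month mice, with Hoxb7Cre at left and Atp6v1b1Cre at right; color gives sex and shape gives condition. The Hoxb7Cre control males stand at the upper right of their panel, at 2802 to 3646 CPM of markers, and the volume-depleted males stand at the lower left, at 1174 to 1261 CPM.

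Markers of intercalated cells, the acid-base cells of the collecting duct, fell in part in Hoxb7Cre males. Of 8, 3 fell after ischemia (Slc4a1, Atp6v1c2 and Aqp6, median log2 -0.47) and 4 after volume depletion (Foxi1, Slc4a1, Aqp6 and Atp6v0d2, median -0.84). Their sum was 862 to 1281 CPM in controls, 849 to 889 CPM after ischemia and 571 to 1074 CPM after volume depletion. In volume-depleted Atp6v1b1Cre males 3 fell (Foxi1, Aqp6 and Atp6v0d2, median -0.81), beside 14.6% of all genes called. There the sum was 1093 to 1438 CPM in controls and 669 to 1024 CPM after volume depletion. In volume-depleted Atp6v1b1Cre females 2 fell (Foxi1 and Atp6v0d2, median -0.80), beside 18% of all genes called. Counts in other lists are for Hoxb7Cre males unless another group is named. They stand beside the same 6.13% and 35.5% of all genes called after ischemia and volume depletion. After volume depletion, 5 of 8 urothelial markers fell (Psca, Upk1b, Upk2, Upk3a and Upk3b), and their sum was 45.3 to 47.8 CPM in controls and 30.4 to 33.3 CPM in volume-depleted males. After ischemia 2 of them fell (Upk1b and Upk3a). Of 5 markers of the thick ascending limb, 4 fell after volume depletion (Umod, Slc12a1, Cldn10 and Ptger3) and none was called after ischemia. In volume-depleted Atp6v1b1Cre mice 3 of these fell in males (Cldn10, Slc12a1 and Ptger3) and 2 in females (Cldn10 and Ptger3). After ischemia, 4 of 6 fat markers fell in Hoxb7Cre males (Adipoq, Cidec, Plin1 and Ucp1), with a sum of 52.0 to 137 CPM in controls and 16.7 to 40.2 CPM in ischemic males. After volume depletion 3 of the 6 fell in Hoxb7Cre males (Adipoq, Plin1 and Ucp1) and 2 in Atp6v1b1Cre males (Plin1 and Ucp1). No marker of these lists had a mean of 0 in any group of 5.5-month pulldowns. In ischemic Hoxb7Cre females, where Muc1 rose, other markers rose beside 3.14% of all genes called. Of 5 macrophage markers 3 rose (Lyz2, Adgre1 and Cd163, median log2 1.85), with a sum of 36.1 to 86.2 CPM in controls and 58.8 to 89.8 CPM after ischemia. Of 5 thick ascending limb markers Umod rose (median 1.28), with a sum of 1013 to 2449 CPM in controls and 3199 to 4339 CPM after ischemia. Of 7 proximal tubule markers Gatm rose (median 0.78), with a sum of 1989 to 4240 CPM in controls and 3486 to 5288 CPM after ischemia. In ischemic Atp6v1b1Cre females none of the markers in these 3 lists was called, beside 2.66% of all genes. The part of these cells in the Muc1 values was not tested.

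In control females neither pulldown differed detectably in Muc1 from total kidney RNA of both lines together. The Atp6v1b1Cre pulldown was lower than total RNA of its own line. The main fits took pulldown and total RNA libraries as unpaired, and whether they came from the same kidneys was not examined. In order of library number, control pulldowns and total RNA libraries followed the same sequence of line, sex and age. Pairs are thus possible, and these tests did not use them. The 6 Hoxb7Cre female pulldowns, 2 of them from mice of 3 months, ranged from 23.1 to 32.5 CPM with a median of 27.2, and the 4 Atp6v1b1Cre female pulldowns are given above. In total RNA, the 6 Hoxb7Cre females, 2 of them of 3 months, ranged from 18.8 to 31.7 CPM with a median of 23.6. The 4 Atp6v1b1Cre females read 35.2, 38.9, 41.3 and 43.6 CPM in total RNA (39.8 ± 3.57), above every other total RNA library. Against the 10 female total RNA libraries of both lines, the log2 difference was -0.10 for the Hoxb7Cre pulldown (95% confidence interval -0.43 to 0.23, edgeR adjusted p = 0.618, 58.2% of genes called). For the Atp6v1b1Cre pulldown it was -0.18 (95% confidence interval -0.56 to 0.20, edgeR adjusted p = 0.452, 49.3% of genes called). The pulldowns of the 2 lines differed by -0.08 in control females (Atp6v1b1Cre minus Hoxb7Cre, 95% confidence interval -0.49 to 0.33, edgeR adjusted p = 0.907, 3.53% of genes called). Against total RNA of its own line only, the Atp6v1b1Cre pulldown was lower by 0.55 (log2 -0.55, edgeR adjusted p = 1.98e-03), and the Hoxb7Cre value turned to 0.21 (adjusted p = 0.205). With all 42 controls of both sexes and sex as a covariate, the Hoxb7Cre value was 0.62 and the difference between the pulldowns was -0.95, values that include the male pulldowns which had entered the choice of the gene.

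**Figure D4:**
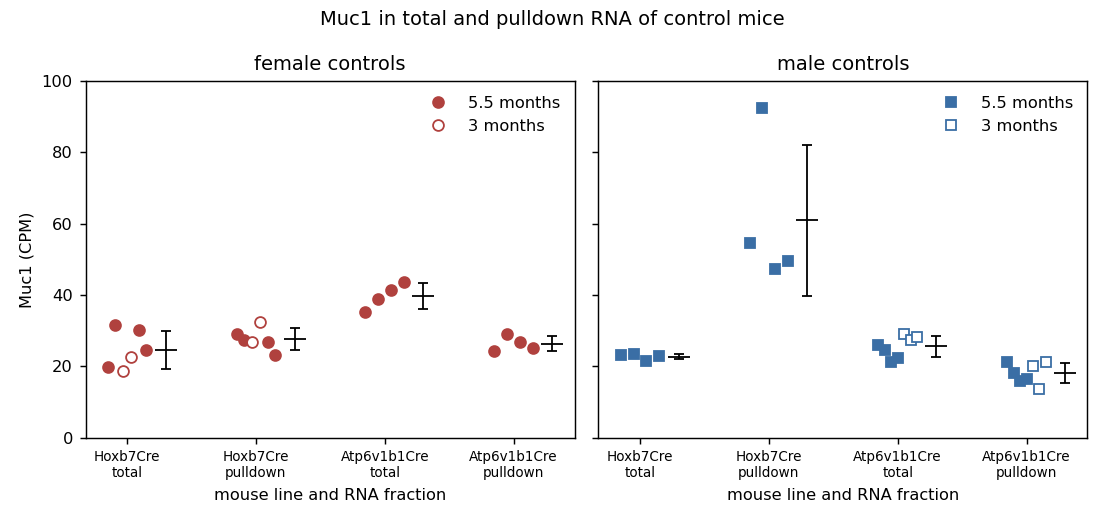
Muc1 level in CPM (y axis) in control mice by line and RNA fraction (x axis), with females at left and males at right; filled points are mice of 5.5 months, open points mice of 3 months, and crosses give the mean and SD of each column. Of the 8 columns, the Hoxb7Cre male pulldown stands highest, at 47.4 to 92.5 CPM, while total RNA of the same line and sex stands at 21.6 to 23.4 CPM.

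In control males the fractions diverged by line, which is given without a test because the pulldowns had entered the choice of the gene. Total RNA of Hoxb7Cre males read 23.1, 23.4, 21.6 and 22.8 CPM (22.7 ± 0.828), and all 4 of their pulldowns read more than that. Total RNA of the 7 Atp6v1b1Cre males ranged from 21.3 to 29.01 CPM with a median of 26.1, and their pulldowns from 13.7 to 21.2 CPM with a median of 18.1. In each fraction 3 of the 7 were of 3 months. The high level in Hoxb7Cre control males was thus seen in the pulldown and not in total RNA.

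In total kidney RNA Muc1 was lower in males than in females. The log2 difference over 11 male and 10 female libraries was -0.42 (SE 0.10, edgeR adjusted p = 0.00269), and 29.5% of genes were called between the sexes. The means were 39.8 CPM in females and 25.6 CPM in males of Atp6v1b1Cre, and 24.6 CPM in females and 22.7 CPM in males of Hoxb7Cre, where the sexes overlapped. These means mix ages in 2 groups. Hoxb7Cre females averaged 20.7 CPM at 3 months and 26.5 CPM at 5.5 months, and Atp6v1b1Cre males 28.2 and 23.6 CPM. Whether the sex difference depended on the line was not tested. Between the lines it was 0.41 (Atp6v1b1Cre minus Hoxb7Cre, SE 0.10), which missed the threshold by edgeR (adjusted p = 0.150, 0.165% of genes called) and passed by DESeq2 (adjusted p = 0.0353). Within mice of 5.5 months that difference was 0.56 in females and 0.03 in males.

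Across the 12 groups of pulldown libraries of 5.5-month mice, mean Muc1 ran in order from volume-depleted Hoxb7Cre males (9.23 CPM) through volume-depleted Atp6v1b1Cre females and males (16.9 and 17.3) and Atp6v1b1Cre control males (17.9) to a middle set. The middle set held Atp6v1b1Cre control females (26.3), volume-depleted Hoxb7Cre females (26.4), Hoxb7Cre control females (26.6) and ischemic Hoxb7Cre males (26.7). Above it stood ischemic Atp6v1b1Cre males (49.1), ischemic Atp6v1b1Cre females (60.7), Hoxb7Cre control males (61.0) and ischemic Hoxb7Cre females (65.5). The 3 libraries of the lowest group overlapped no other group, while neighbors among the next 3 groups, within the middle set and within the high set overlapped. Single libraries overlapped between these sets too. Volume-depleted Hoxb7Cre females ranged from 17.7 to 37.3 CPM, while volume-depleted Atp6v1b1Cre males reached 21.6 CPM and ischemic Atp6v1b1Cre males began at 31.8 CPM.

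The other mucins with a transmembrane or mucin-like domain did not share one direction. Of 14 listed, 8 were in the table. Muc20, a membrane mucin of kidney tubules that binds the receptor MET, had an average level of 26.3 CPM in the pulldowns, and Muc4, a membrane mucin that binds ERBB2, had 3.81 CPM. After volume depletion in Hoxb7Cre males Muc20 fell (log2 -1.83), Muc4 fell (-1.82) and the adhesion molecule Mcam rose (0.55), so that 3 of 8 were called beside 35.5% of all genes. The median of the 8 was 0.21. After ischemia in Hoxb7Cre males Muc20 fell (log2 -0.90) and no other was called, beside 6.13% of all genes. After ischemia in Atp6v1b1Cre males Muc4 rose (1.81) and no other was called, beside 8.51% of all genes. In volume-depleted Atp6v1b1Cre males Muc20 rose (0.64) and the endothelial sialomucin Emcn fell (-0.64), beside 14.6% of all genes called. In females none of the 8 was called in any of the 4 comparisons, and their medians lay between -0.18 and 0.32. The shares of all genes called there ran from 0.109% to 18%.

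All 5 secreted, gel-forming mucins listed were in the table, at averages from 0.0408 CPM (Muc5ac) to 2.97 CPM (Muc6) in the pulldowns. Muc19 fell in volume-depleted Hoxb7Cre males (log2 -2.95), Atp6v1b1Cre males (-1.61) and Atp6v1b1Cre females (-1.82). Muc2 fell in volume-depleted Hoxb7Cre males (-1.67), and Muc6 rose in volume-depleted Atp6v1b1Cre females (2.38). All genes called after volume depletion were 35.5% in Hoxb7Cre males, 14.6% in Atp6v1b1Cre males and 18% in Atp6v1b1Cre females. None of the 5 was called after ischemia, where 2.66% to 8.51% of all genes were called.

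The enzymes that build O-linked glycans, 30 in all, were each in the table. In volume-depleted Hoxb7Cre males 4 rose and 7 fell, 11 of 30 beside 35.5% of all genes, with a median of -0.09. Gcnt3, which branches mucin glycans at their core, fell the most among them (log2 -3.38). Gcnt1, another branching enzyme, fell by 1.48 on the log2 scale, and C1galt1c1, the chaperone of the enzyme that extends the core, fell by 0.91. Galnt10 and Galnt15, which start O-glycans, rose (1.19 and 1.37), as did the sialyltransferases St3gal1 (0.80) and St6galnac4 (2.08). Galnt1, Galnt7, Galnt12 and Galnt16, which also start O-glycans, fell (-0.59, -0.38, -1.13 and -1.70). After ischemia in Hoxb7Cre males Gcnt3 fell (-1.52) and St3gal1 and St6galnac4 rose (0.84 and 0.85). After ischemia in Atp6v1b1Cre males C1galt1c1 rose (0.51) and Galnt11 and Galnt14 fell (-1.17 and -0.95). In volume-depleted Atp6v1b1Cre males St3gal1 rose (0.53) and Galnt1, Galnt14 and Gcnt1 fell (-0.46, -0.78 and -1.14). In females Galnt5 fell after ischemia in Atp6v1b1Cre (-3.34), and in volume-depleted Atp6v1b1Cre females Gcnt4 rose (1.23) while Galnt1 and Galnt16 fell (-0.79 and -1.66). None of the 30 was called in Hoxb7Cre females, where 3.14% (ischemia) and 0.109% (volume depletion) of all genes were called. The shares of all genes called in Atp6v1b1Cre males and females were 8.51% and 2.66% after ischemia. After volume depletion they were 14.6% and 18%. In ischemic Hoxb7Cre males the share was 6.13%.

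Of 19 partners of MUC1, 7 were called in volume-depleted Hoxb7Cre males, beside 35.5% of all genes. Icam1 and Sele, adhesion molecules of the vessel wall that can bind MUC1, rose (log2 2.98 and 3.33), as did Jup (0.39), which encodes γ-catenin. The receptors Erbb2 and Erbb3 fell (-1.11 and -0.98), as did the sheddase Adam17 (-0.50) and the calcium channel Trpv5 (-1.66), whose stay at the apical membrane MUC1 prolongs. Trpv5 also fell in volume-depleted Atp6v1b1Cre males (-1.32) and females (-1.95). In volume-depleted Atp6v1b1Cre males Icam1 and Sele rose (1.65 and 3.06) and Sos1 fell (-0.37). In volume-depleted Atp6v1b1Cre females Erbb2 and Jup fell (-0.84 and -0.58). After ischemia Tmed9, a cargo receptor that holds misfolded MUC1 in the early secretory pathway, rose in Atp6v1b1Cre females (0.83) and males (0.49). Egfr and Erbb3 fell in ischemic Atp6v1b1Cre males (-1.07 and -1.25), and Siglec1 rose in ischemic Hoxb7Cre males (1.45). None of the 19 was called in Hoxb7Cre females, where 3.14% (ischemia) and 0.109% (volume depletion) of all genes were called. For Atp6v1b1Cre males and females, the shares of all genes called were 8.51% and 2.66% after ischemia. After volume depletion they were 14.6% and 18%. In ischemic Hoxb7Cre males the share was 6.13%.

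The genes around Muc1 did not follow it as a block. Within 50 kb, RefSeq lists 15 genes, of which 11 are in the table, and none overlaps Muc1. Trim46, the nearest, ends 787 bases downstream on the minus strand; it fell in volume-depleted Hoxb7Cre males (log2 -0.59) and rose in ischemic Atp6v1b1Cre males (1.25) and in volume-depleted Atp6v1b1Cre males and females (1.02 and 1.00). Thbs3, which ends 2214 bases upstream on the plus strand, fell in volume-depleted Hoxb7Cre males (-1.07). Efna1 rose in volume-depleted Hoxb7Cre males (1.66) and Atp6v1b1Cre females (1.83), and so did Scamp3 (0.77 and 0.90). Krtcap2 rose after ischemia in Atp6v1b1Cre females (0.88) and males (0.66). Beside the volume depletion calls stand 35.5% of all genes in Hoxb7Cre males, 14.6% in Atp6v1b1Cre males and 18% in Atp6v1b1Cre females. Beside the ischemia calls stand 2.66% of all genes in Atp6v1b1Cre females and 8.51% in males. Dpm3, Fam189b, Mir92b, Mtx1 and Slc50a1, also in the table, were called in none of the 8 comparisons.

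The genes whose level followed Muc1 most closely over the 43 pulldown libraries were ranked by Pearson's r of log2 CPM among 15130 genes with at least 10 counts on average. Among the first 10 were Nup210l (r = 0.89), Il17re, Gmcl1, L1cam, Tmc4, Setd8, Wdpcp, Kif3a and Cd82 (r = 0.87), and 185 genes reached 0.8. Each r is a description over libraries that share line, sex, condition and scaling. Taken within the 21 females and within the 22 males, r of these 9 lay between 0.86 and 0.92 and between 0.84 and 0.93. L1cam, a cell adhesion molecule of the collecting duct, had group means of 79.8 CPM in Hoxb7Cre control males, 17.5 in volume-depleted Hoxb7Cre males, 34.1 in Hoxb7Cre control females and 105.7 in ischemic Hoxb7Cre females. Il17re, a receptor for interleukin 17C, had 19.5, 7.56, 12.8 and 24.5 CPM in the same groups. All 9 fell in volume-depleted Hoxb7Cre males, with log2 fold changes from -1.01 (Cd82) to -2.39 (Nup210l), which follows from choosing them on these libraries.

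**Figure D5:**
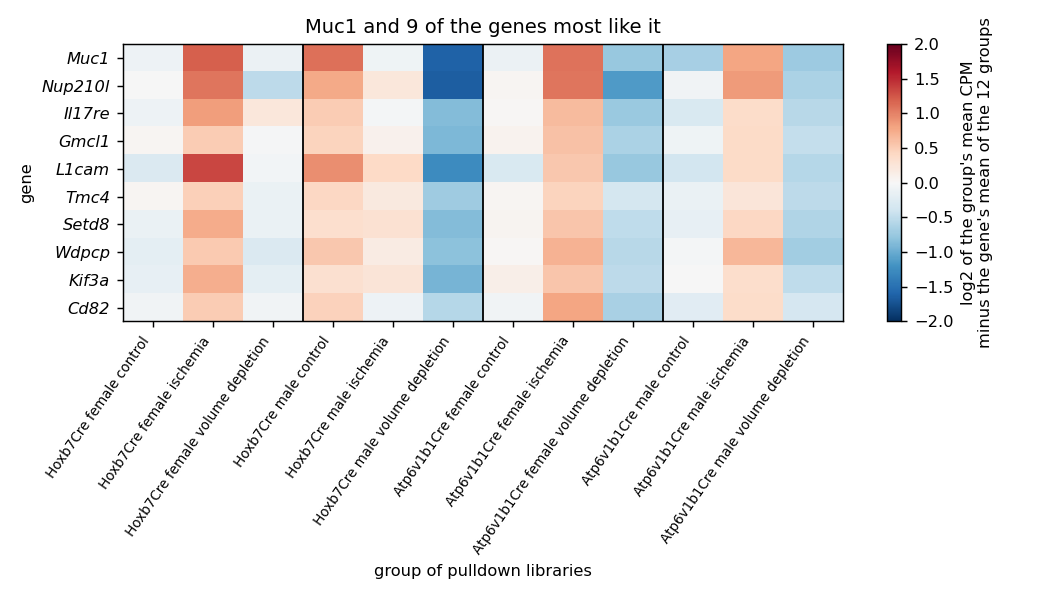
Group means of Muc1 and of 9 of the genes most like it (y axis) over the 12 groups of pulldown libraries (x axis), as log2 of the group's mean CPM minus the mean of the gene's 12 groups, with red above and blue below that mean. The volume-depleted Hoxb7Cre males are the lowest group for Muc1 and for 8 of the 9 genes, and Cd82 is lowest in volume-depleted Atp6v1b1Cre females.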

How the data were processed

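Raw counts per gene were deposited by the authors as 1 table of 69 libraries. Per the labels and the study's methods, reads were called with CASAVA 1.8.2, trimmed with Trimmomatic 0.36, aligned to mm10 with STAR 2.5.3a and counted with HTSeq 0.6.1p2; the annotation version is not given in the sources used here. Samples were grouped by their titles and characteristics. The 21175 genes whose counts summed to 2 or more across all libraries were tested with edgeR 4.0.16 (quasi-likelihood test, TMM scaling, Benjamini-Hochberg adjustment over all genes, threshold 0.05, 2-sided) in R 4.3.3. Females, males, female controls and total RNA were fitted separately, and volume-depleted groups in a fit of the 12 groups that was added after seeing the data. The planned p-values of Muc1 for male volume depletion are not printed, because its controls had entered the choice of the gene. The fits were tested on simulated data. DESeq2 1.42.0, other scaling and filters, library series, a replicate block and leaving out each library were alternatives. Muc1 and the gene lists were chosen with earlier results of these data known. Named genes were the listed genes that passed, the genes within 50 kb of Muc1 and the 10 genes with the highest Pearson's r with Muc1. Some genes that this rule names are not reported here. Promoter windows and neighboring genes were from RefSeq (GRCm38.p6). Library depth was 12618062 to 30305464 counts.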

Additional observations from a re-analysis of the deposited data

Results flagged for a closer look

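Of 11 groups of 4 libraries, 2 held a library far from the rest of its group, and chance gives about 1 such group in 20. Among the Hoxb7Cre control male pulldowns 1 library read 92.5 CPM of Muc1, with the nearest at 54.4 CPM. Among the ischemic Hoxb7Cre male pulldowns 1 library read 32.7 CPM, with the nearest at 25.2 CPM. The response of Muc1 to volume depletion was 2.69 apart between the lines in males on the log2 scale (Atp6v1b1Cre minus Hoxb7Cre), in a contrast that holds the male controls which had entered the choice of the gene. In Hoxb7Cre mice all ischemic females lay above their controls (log2 1.31) and all ischemic males below theirs (log2 -1.17), and the difference between the sexes was not tested. In ischemic Atp6v1b1Cre males the log2 fold change was 1.45, opposite to that of Hoxb7Cre males, and these values entered the choice of the gene.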

How the results depend on the processing

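Leaving aside the male injury responses, whose p-values are not printed, 16 of 117 values under other settings changed direction or side of the threshold. So did 20 with 1 library left out, while 86 of the latter did not. For the changed values the cause was not tested. With both sexes fitted together and sex as a covariate, ischemia in Hoxb7Cre mice gave -0.14 in place of the separate female and male values, and the difference between the lines gave 1.46. The same fit gave -1.38 for volume depletion in Hoxb7Cre and 1.08 for its difference between the lines. With the library number series as a covariate, ischemia in Hoxb7Cre females was 1.19, and on libraries numbered 1 to 40 it was 1.17, with a difference between the lines of 0.18 in females and 3.01 in males. With only the groups compared, Atp6v1b1Cre females gave 1.20 after ischemia and -0.60 after volume depletion (edgeR adjusted p = 0.0552 and 0.0368). All 42 controls together gave 0.62 for Hoxb7Cre pulldown against total RNA and -0.95 between the pulldowns, and total RNA of the same line gave 0.21 and -0.55. DESeq2 called the line difference in total RNA (0.41), and DESeq2 size factors gave 0.90 between volume-depleted males (edgeR adjusted p = 0.0530).

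Replicate numbers were compared only between pulldowns of the same line and sex in different conditions. Pairing of control pulldowns with total RNA was not examined. Over 14 such pairs of pulldowns with the same number, deviations from the group means correlated between -0.42 and 0.36. Of 22 pulldowns with a partner, 1 correlated best with its own number. With the number as a replicate block, ischemia gave 1.03 in Hoxb7Cre females (edgeR adjusted p = 0.953) and a difference between the lines of 2.04 in males, and volume depletion a difference of 2.02 in males. The block could not be fitted for Atp6v1b1Cre females.

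With 1 library left out, ischemia ranged from 1.24 to 1.37 in Hoxb7Cre females, from 0.92 to 1.41 in Atp6v1b1Cre females and from -0.39 to 0.11 for their difference, which turned without Atp6v1b1Cre ischemia library 6. Volume depletion ranged from -0.24 to 0.13 in Hoxb7Cre females, turning without volume depletion library 2 (0.13) or 5 (0.11) or control library 1 (0.03), and from -0.16 to 0.058 in Atp6v1b1Cre males, turning without control library 6 (0.058) or volume depletion library 6 (0.04). Among volume-depleted mice the ranges were 0.78 to 1.03 between males, -0.79 to -0.42 between females and -0.095 to 0.19 between the sexes of Atp6v1b1Cre, which turned without library 2 (-0.095), 3 (-0.0083) or 4 (-0.072).

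Genes called, with the range over other settings, were 665 (0 to 2273) and 563 (86 to 3991) for ischemia in Hoxb7Cre and Atp6v1b1Cre females, 23 (1 to 2704) and 3815 (1216 to 6409) for volume depletion, and 0 for both differences (up to 585 and 831). In males they were 1298 (625 to 3078), 1803 (0 to 3991) and 1649 (0 to 3231) for ischemia in Hoxb7Cre, Atp6v1b1Cre and their difference, and 7521 (2704 to 8904), 3086 (1311 to 6409) and 890 (53 to 3103) for volume depletion. Between control pulldowns they were 748 (152 to 2103), between lines in total RNA 35 (5 to 92), and among volume-depleted mice 377 (371 to 2189) between males, 2262 (2203 to 3438) between the sexes of Hoxb7Cre and 255 (249 to 1363) between those of Atp6v1b1Cre.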
